A study of Rattus norvegicus with 22 samples.

Results

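The genes described here are 10 transcription factors that build the embryonic heart: Gata4, Gata6, Nkx2-5, Mef2c, Tbx5, Tbx20, Hand1, Hand2, Isl1 and Hey2. They were chosen by name and not by a rule on their values, though earlier results of these data were known. All 10 are among the 23476 genes tested. They were measured in engineered tissue, a cylinder of dissociated ventricular cells in matrix held between anchors, from Sprague Dawley rat embryos at gestational day 14.5. All tissues were kept in culture for 7 days. From day 5, for 48 h, they received both cyclic stretch (0.5 Hz, 5% elongation) and 10 µM BIRB796, an inhibitor of the kinase p38 (4 arrays), BIRB796 alone (4 arrays), stretch alone (7 arrays), or neither (control, 7 arrays). Each tissue pools the cell types of the ventricle, so fewer cells of a type and less RNA per cell cannot be told apart. The replicates are described as biological, but none is linked to an animal, litter or dish, and p-values therefore speak only of the scatter among the arrays at hand, which may be technical.

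GATA4, NKX2-5, MEF2C and TBX5 bind together at the promoters of contractile genes and of the natriuretic peptides, and their doses set how heart muscle forms. HAND1 and HAND2 pattern the ventricles, TBX20 keeps chamber muscle distinct, ISL1 marks progenitors of the second heart field, and HEY2 is a repressor switched on by Notch in ventricular muscle and in vascular smooth muscle. MEF2C is a known substrate of p38, the kinase that BIRB796 inhibits.

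The array carries 11 probes for the 10 genes, 1 for each apart from Hey2, which has 2. Shown first are the opening 30 bases of the probes whose genes differed most between groups. Hey2 comes with both of its probes, since only the main one was above background on all arrays. The main Hey2 probe lies at chr1:27513964-27514023 (rn4, the build of the array's design) and holds 41.7% G and C. The other lies at chr1:27515068-27515127 and holds 23.3%. The Isl1 probe is at chr2:48052237-48052296 and the Gata6 probe at chr18:2534368-2534427. Whether these stretches are coding or untranslated was not looked up, since no rn4 annotation was used here.
Hey2, main probe: ccagatctccacagcagcaataaagcgatt
Hey2, other probe: taaacattatgcaaagttatactcataaat
Isl1: gtccggagagacatgatggtggtttacagg
Gata6: cctttgttttgaaagagatatatttcccaa

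Isl1 and Hey2 had like patterns over the samples, so the 250 bases before their start sites are printed as well, from RefSeq on build GRCr8. Hey2 lies at chr1:28640850-28641099 on the plus strand and Isl1 at chr2:49823443-49823692 on the minus strand. Capitals mark matches on either strand. The motifs searched include TGGGAA, the core bound by CSL, which is the partner of Notch on chromatin. AGATAA is bound by GATA factors. CANNTG is the E-box of basic helix-loop-helix factors, and TGANTCA is the AP-1 site.
Hey2: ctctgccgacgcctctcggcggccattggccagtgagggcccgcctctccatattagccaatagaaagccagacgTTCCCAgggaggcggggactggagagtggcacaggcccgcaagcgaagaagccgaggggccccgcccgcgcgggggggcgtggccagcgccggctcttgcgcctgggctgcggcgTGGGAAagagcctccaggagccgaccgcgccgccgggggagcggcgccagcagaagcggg
Isl1: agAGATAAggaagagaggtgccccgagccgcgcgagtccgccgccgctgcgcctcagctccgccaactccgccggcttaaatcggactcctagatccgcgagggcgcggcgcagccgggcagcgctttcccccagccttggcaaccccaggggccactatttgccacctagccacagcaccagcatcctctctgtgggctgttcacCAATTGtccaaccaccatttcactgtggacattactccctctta

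The Hey2 window holds 2 matches to the CSL core, at positions -175 and -60 from the start site. Of 27457 rat windows of this length, 21.6% hold at least 1 such match and 2.61% hold 2 or more. The Isl1 window holds none, but it has AGATAA at position -248, a motif found in 10% of windows, and an E-box at -44, found in 65.2%. Neither window holds TGANTCA, which 6.36% of windows do. RefSeq windows matched 8 of the 10 genes by symbol. Among those 8, Hey2 was the single one with a CSL core, Hand2 and Isl1 had AGATAA, and none had AGGTGT, part of a T-box site, that 11.4% of windows hold. A match of letters describes the window and does not show that a factor binds it.

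Signal is given as log2 of the processed spot signal minus the 75th percentile of its array, so a value below 0 is dimmer than that percentile and says nothing about one gene against another. The chosen probe of each factor was well above background on all 22 arrays and saturated on none. The arrays were read in 3 scan sessions: control and stretch replicates 1 to 3 in session 1, stretch replicates 4 to 7 alone in session 2, and all other arrays in session 3. Stretch replicates 4 and 5 differed by less than the noise between repeated spots (ratio 0.503). They were counted as 1 sample, which leaves 21 samples. In session 3, control replicates 5 and 6 (ratio 1.134), 4 and 5 (1.228) and 4 and 6 (1.578) came close to that noise. So did stretch with BIRB796 replicates 2 and 3 (1.255) and BIRB796 replicates 2 and 4 (1.471). All of these were counted as separate samples. Control replicate 7 stood farther from the other session 3 controls (2.731 to 3.323). Of all probes, 65.5% to 91.3% were above background per array, with stretch replicate 7 lowest. The labelled tissue fits its markers: 11 of 11 measured cardiomyocyte markers were above background on all arrays, and their mean signal lay between 3.59 and 4.62 on every array but stretch replicate 6, where it was 2.60.

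**Figure D1:**
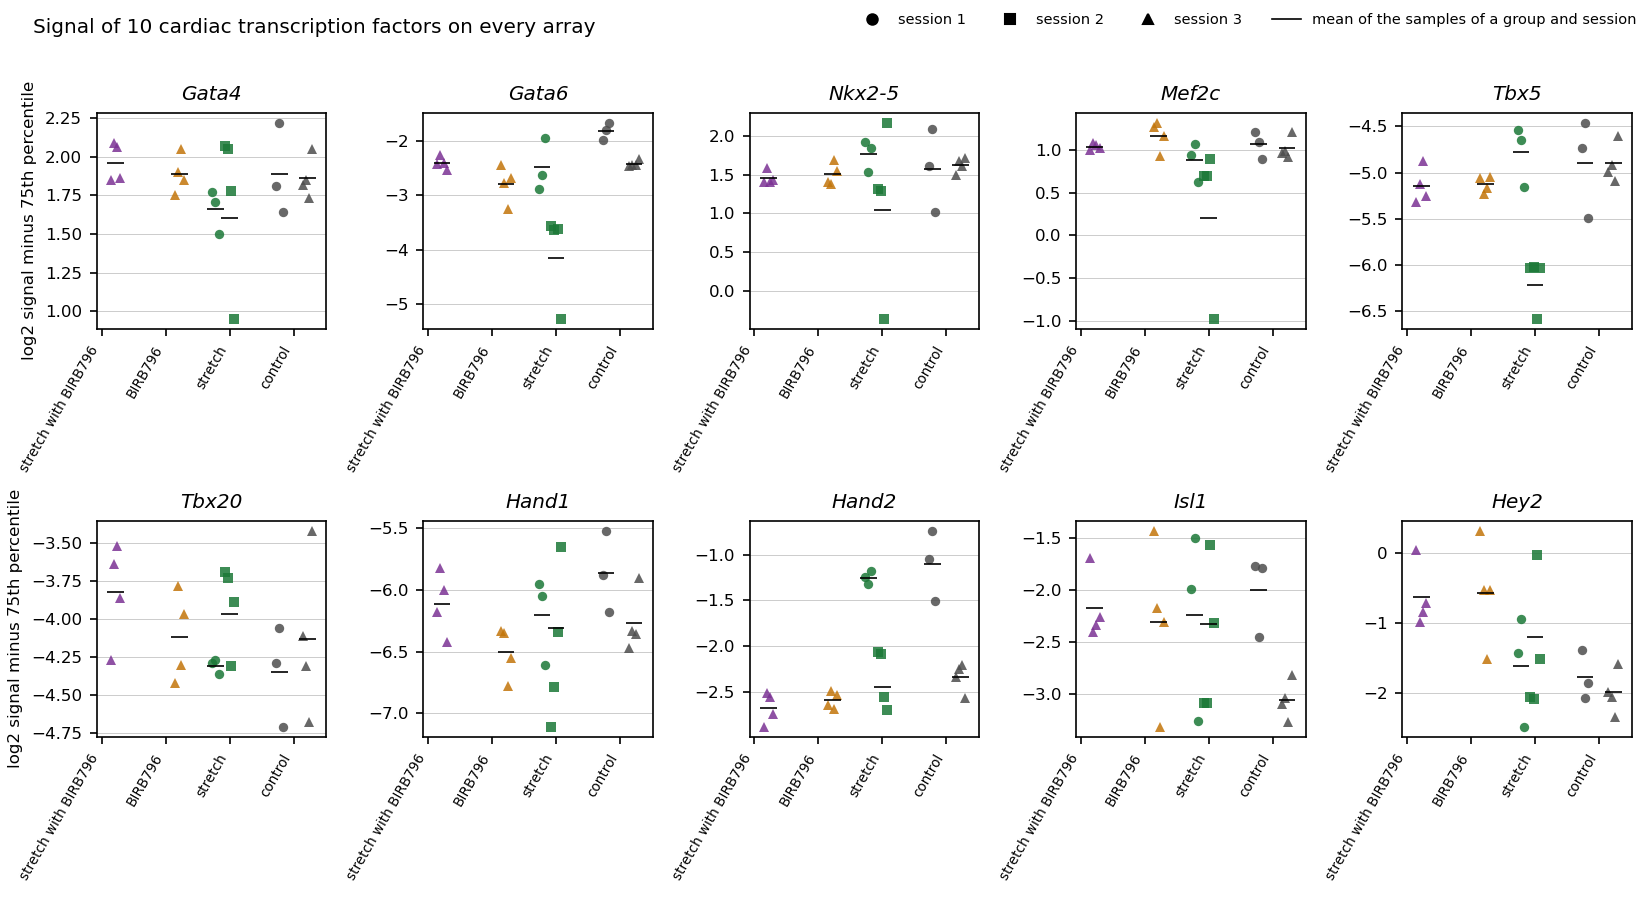
Signal of each of the 10 factors on every array (y axis, log2 signal minus the array's 75th percentile), by group, with the scan session as the marker shape and bars for the mean of a group's samples in a session. Within session 3, Hey2 lies between -1.52 and 0.31 in all 8 BIRB796-treated samples, above the 4 controls at -2.34 to -1.58, whereas Gata4, Nkx2-5 and Mef2c stay near their controls.

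None of the 10 factors passed the test for stretch with BIRB796 against control in the fit of all samples with a term for the scan session. In that fit, the difference between groups that share a session comes from that session alone. The other samples enter only the estimate of the spread. Hey2 and Isl1 had the largest differences, and these 2 passed when the samples of session 3 were fitted alone. Hey2 read 0.03, -0.99, -0.84 and -0.72 in stretch with BIRB796, against -1.98, -2.06, -2.34 and -1.58 in the session 3 controls. Every treated sample lay above every control. The difference was 1.36 ± 0.43 on the log2 scale (SE), or 2.56-fold, with an adjusted p of 0.271 over all samples (limma). On these 8 samples alone the standard error was 0.25 and the adjusted p 0.0454. Isl1 read -1.69, -2.40, -2.33 and -2.26 in stretch with BIRB796, against -3.09, -3.03, -3.26 and -2.81 in the same controls. Again the groups did not overlap. The difference was 0.88 ± 0.40, or 1.84-fold, over all samples (limma, adjusted p 0.507), and on the 8 samples alone the standard error was 0.17 and the adjusted p 0.0491.

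Over all samples 0 of 10 factors were called, beside 18 of 23476 genes (0.0767%), with 2 factors and 2196 genes at an unadjusted p under 0.05. In session 3 alone 2 of 10 were called, both higher, beside 652 genes (2.78%), of which 258 were higher (1.1%). That count of genes depended on single arrays, at 0 without control replicate 4, 5 or 6 or stretch with BIRB796 replicate 4, and 3357 (14.3%) without control replicate 7. Of all genes, 8.94% were higher in every stretch with BIRB796 sample than in every session 3 control. With session 3 alone, leaving out control replicate 4, 5 or 6 or stretch with BIRB796 replicate 2, 3 or 4 ended both calls, with adjusted p from 0.073 to 0.161. Without control replicate 7, where 14.3% of all genes were called, they were 0.0157 for Hey2 and 0.0216 for Isl1. Without stretch with BIRB796 replicate 1, where 371 genes were called (1.58%), they were 0.0468 and 0.0465.

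The arrays of session 3 were spread unevenly over 4 slides. Stretch with BIRB796 lay on slides 6, 8, 8 and 9 and BIRB796 on slides 6, 9, 9 and 9, against slides 6, 7, 7 and 8 for control. With the slide as a random block in session 3, Hey2 differed between stretch with BIRB796 and control by 1.31 ± 0.25 (limma, adjusted p 0.044) and Isl1 by 0.87 ± 0.18 (adjusted p 0.0481), 2 of 10 factors beside 2.91% of genes. With the slide as a fixed block, which compares only arrays of a shared slide and keeps 3 residual degrees of freedom, the differences were 1.24 ± 0.34 and 0.86 ± 0.24 (adjusted p 0.303 and 0.308). There 0 of 10 factors and 0 genes (0%) were called, with 3362 genes at an unadjusted p under 0.05.

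The sessions also differ for Isl1. Session 1 controls read -1.77, -2.45 and -1.79, which overlaps stretch with BIRB796 and lies above all session 3 controls. Hey2 in session 1 controls, at -1.38, -2.07 and -1.85, stayed below all 4 stretch with BIRB796 samples and overlapped the session 3 controls. The median shift of all genes from session 3 to session 1 controls was 0.44, that of Isl1 was 1.04 and that of Hey2 was 0.22.

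BIRB796 without stretch was set against control in the same way, and none of the 10 factors passed. Hey2, which produces a repressor, again had the largest difference. It read 0.31, -0.53, -1.52 and -0.53 in BIRB796, against -1.98, -2.06, -2.34 and -1.58 in the session 3 controls. All 4 treated samples lay above all controls, though replicate 3 cleared the highest control narrowly. The difference was 1.42 ± 0.43, or 2.67-fold, over all samples (limma, adjusted p 0.408), and in session 3 alone the standard error was 0.36 and the adjusted p 0.105. Over all samples 0 of 10 factors and 0 genes (0%) were called, with 1 factor and 1457 genes at an unadjusted p under 0.05. With session 3 alone, 0 factors and 290 genes (1.24%) were called, with 2 factors and 4036 genes at an unadjusted p under 0.05. The 290 became 0 without control replicate 4, 5 or 6 or BIRB796 replicate 2 or 4, 76 without BIRB796 replicate 1, 106 without BIRB796 replicate 3 and 1841 without control replicate 7. Hey2 was the single factor without overlap, which 4.91% of genes matched in that direction.

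Isl1 under BIRB796 alone was uneven. It read -1.43, -2.17, -3.31 and -2.30, against -3.09, -3.03, -3.26 and -2.81 in the session 3 controls, so 3 treated samples lay above all controls and replicate 3 lay below them. The difference of 0.74 ± 0.40 was not called over all samples (limma, adjusted p 0.874), nor in session 3 alone, where the standard error was 0.36 and the adjusted p 0.343. Replicate 3 was also the lowest BIRB796 sample for Hey2. With the slide as a fixed block in session 3, slide 6 is the single slide with both groups. It holds 1 array of each, BIRB796 replicate 1 and control replicate 4. Their differences were 2.29 for Hey2 and 1.66 for Isl1, with no replicate of either group on that slide. BIRB796 replicate 1 was the highest BIRB796 sample for both genes.

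The other Hey2 probe was above background on 4 of 4 stretch with BIRB796 arrays and 4 of 4 BIRB796 arrays, against 1 of 7 stretch arrays and 3 of 7 control arrays. Since it was not well above background on most control arrays, no difference is reported from this probe, and the Hey2 values rest on the main probe.

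**Figure D2:**
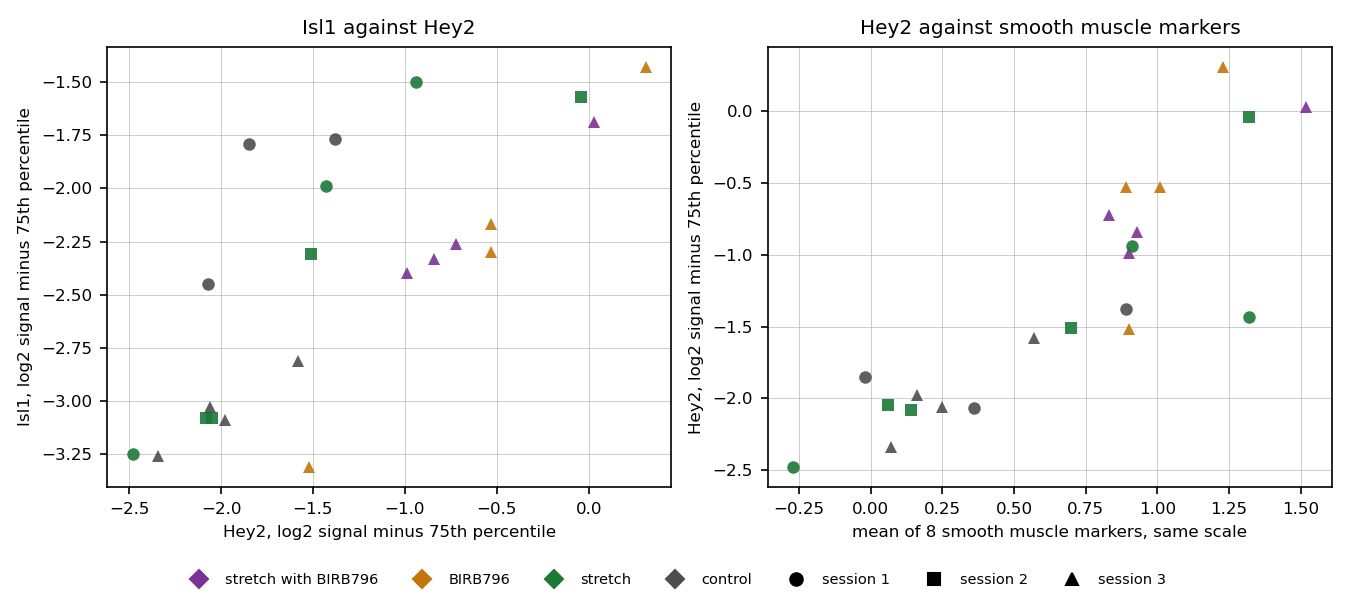
Left, Isl1 against Hey2 on each of the 22 arrays; right, Hey2 against the mean of 8 smooth muscle markers (all axes in log2 signal minus the array's 75th percentile; colour gives the group, shape the scan session). Samples with more Hey2 mostly have more Isl1 and a higher marker mean. The BIRB796 sample at -3.31 for Isl1 and the stretch sample with markers at 1.32 and Hey2 at -1.43 stand off.

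Isl1 and Hey2 varied together from sample to sample. With each session centred on its own mean, Pearson's r between them was 0.93 over 21 samples (Spearman's rho 0.92) and stayed at 0.93 without the 2 samples farthest from the median of Isl1. Within session 1 it was 0.90 (6 samples) and within session 3 it was 0.96 (12 samples). These samples share slides and sessions, and the value is a description. By the same measure over 16237 genes, Hey2 ranked behind 2 of all genes for Isl1, namely Adamts12, a matrix metalloprotease (r 0.94), and Lox, which cross-links collagen (r 0.93). Among the 3 genes most like Hey2 were Acan, the proteoglycan aggrecan (r 0.95), and Plaat1 (r 0.95). Among the stretch samples, replicate 6 had Hey2 at -0.04 and Isl1 at -1.57, while replicate 3 had Hey2 at -2.48 and Isl1 at -3.25.

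Some smooth muscle markers were higher in the BIRB796 groups. Of 8 measured, 6 had a positive and 2 a negative difference from control for stretch with BIRB796, and 5 a positive and 3 a negative one for BIRB796. None of the 8 was called over all samples with the session term, beside 0.0767% of all genes for stretch with BIRB796 and 0% for BIRB796. The mean of the 8 ran from 0.83 to 1.52 in stretch with BIRB796 and from 0.89 to 1.23 in BIRB796, against 0.07 to 0.57 in session 3 controls. It was 1.32 in stretch replicate 6, where Hey2 was high, and -0.27 in stretch replicate 3, where Hey2 was low, but also 1.32 in stretch replicate 1, where Hey2 was -1.43. Fitted within session 3, Myh11, Tagln and Lmod1, all of the contractile apparatus of smooth muscle, were called higher in both comparisons with control (limma). Acta2 was called higher in that of BIRB796. These fits called 2.78% of all genes for stretch with BIRB796 and 1.24% for BIRB796. Without control replicate 4, 5 or 6, neither called any gene. Myh11 differed by 1.53 ± 0.27 for stretch with BIRB796 (adjusted p 0.0437) and by 1.61 ± 0.26 for BIRB796 (adjusted p 0.0415). The mean of 10 epicardial markers was -2.88 to -1.57 in stretch with BIRB796 and -2.88 to -1.76 in BIRB796, against -1.54 to -0.64 in session 3 controls. Endothelial markers averaged -4.04 to -3.70 in stretch with BIRB796 and -3.77 to -3.17 in BIRB796, against -3.14 to -2.89 in those controls. Cardiomyocyte markers averaged 4.25 to 4.40, 4.09 to 4.33 and 4.19 to 4.58 in the same order of groups. The part of any of these in the Hey2 and Isl1 values was not tested.

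The Notch pathway, which turns Hey2 on, was read through 14 measured genes. None was called in either comparison with control, in session 3 alone or over all samples. Session 3 alone called 2.78% of all genes for stretch with BIRB796 and 1.24% for BIRB796. Over all samples the shares were 0.0767% and 0%. At such shares a lack of calls among 14 genes says little about the pathway. Jag1, a Notch ligand, read 1.27, 0.46, 0.73 and 1.00 in stretch with BIRB796 and 1.76, 1.18, 0.12 and 1.15 in BIRB796, against -2.20, -0.31, -0.43 and 0.18 in session 3 controls. Only BIRB796 replicate 3 fell among these controls. Session 1 controls ran from -0.76 to 0.62, a range that also takes in stretch with BIRB796 replicate 2. The Jag1 differences of 1.56 ± 0.59 and 1.74 ± 0.59 over all samples had adjusted p of 0.383 and 0.495 (limma). Heyl, a relative of Hey2, differed by 0.83 ± 0.19 for BIRB796 in session 3 alone (limma, adjusted p 0.0856). Notch3, a receptor of mural cells, differed there by 0.90 ± 0.24 for stretch with BIRB796 (limma, adjusted p 0.0822). Session 1 controls overlapped the treated samples for both. They read -4.67 to -3.72 for Heyl, beside -4.04 to -3.25 in BIRB796. For Notch3 they read -3.21 to -2.07, beside -3.12 to -2.10 in stretch with BIRB796. Hey1, another relative, differed by 0.08 in both comparisons. The list's median was 0.02 for stretch with BIRB796 and 0.07 for BIRB796, beside 0.04 and -0.02 for all genes.

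**Figure D3:**
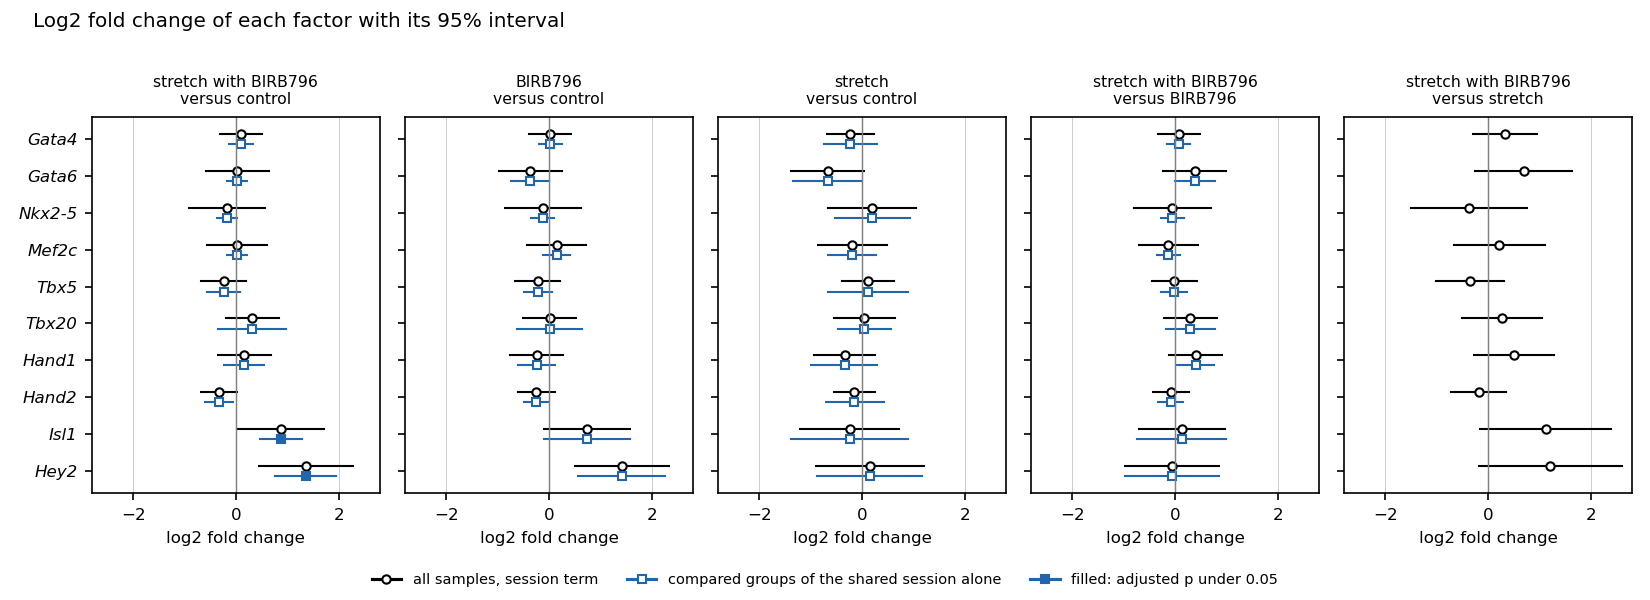
Log2 fold change (x axis) of each factor (rows) in 5 comparisons, with 95% confidence intervals, from the fit of all samples with a session term (black circles) and from the compared groups of a shared session alone (blue squares; none exists for stretch with BIRB796 against stretch). The filled symbols, Hey2 at 1.36 and Isl1 at 0.88, are the 2 with an adjusted p under 0.05.

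Gata4, Nkx2-5 and Mef2c, the core factors of heart muscle, differed little between the groups of session 3. Gata4, a zinc finger activator, read 1.85, 2.09, 2.06 and 1.86 in stretch with BIRB796 and 1.75, 1.90, 2.05 and 1.85 in BIRB796, against 1.82, 1.85, 1.73 and 2.05 in session 3 controls. The 3 groups overlap. In session 3 alone its log2 difference was 0.10 (95% interval -0.13 to 0.33) for stretch with BIRB796 and 0.03 (-0.20 to 0.26) for BIRB796. Mef2c, a MADS-box activator, differed by 0.02 (-0.17 to 0.21) and 0.15 (-0.11 to 0.41), and Nkx2-5, a homeobox activator, by -0.17 (-0.36 to 0.02) and -0.12 (-0.34 to 0.10). No interval of these 3 genes reached a difference of 1 on the log2 scale, also over all samples, where the widest, that of Nkx2-5 for stretch with BIRB796, ran from -0.91 to 0.57.

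Neither T-box factor passed the test. Tbx5, an activator needed for the left ventricle and septum, read -5.32, -5.12, -4.87 and -5.25 in stretch with BIRB796 and -5.06, -5.23, -5.16 and -5.05 in BIRB796, against -4.99, -4.92, -5.09 and -4.60 in session 3 controls. The treated samples sit low but overlap the controls, with differences of -0.24 ± 0.14 and -0.22 ± 0.12 in session 3 alone (limma, adjusted p 0.342 and 0.383). Tbx20 was noisier: the session 3 controls alone ran from -4.68 to -3.42, and its differences were 0.31 ± 0.28 and 0.02 ± 0.27.

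Hand2 had slightly lower means in both BIRB796 groups, a difference that did not pass the test. It read -2.88, -2.51, -2.55 and -2.74 in stretch with BIRB796 and -2.64, -2.49, -2.69 and -2.53 in BIRB796, against -2.34, -2.25, -2.21 and -2.57 in session 3 controls. Control replicate 7 was the single control inside the treated range. The differences of -0.33 ± 0.12 and -0.25 ± 0.10 had adjusted p of 0.145 and 0.267 (limma on session 3 alone). Hand2 also shifted with the session more than any other factor, by 1.24 between session 1 and session 3 controls. Hand1, its relative, differed from control by 0.16 ± 0.17 for stretch with BIRB796 and -0.24 ± 0.16 for BIRB796.

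Stretch alone was set against control on 3 slides of session 1, each with 1 array of either group. Of the 10 factors, 0 were called in the fit of all samples, in which 0 of 23476 genes were called (0%), with 0 factors and 712 genes at an unadjusted p under 0.05 (limma). The same held in session 1 alone, with 1 factor and 633 genes at an unadjusted p under 0.05, and no factor's groups were apart, which 8.89% of genes achieved. The median log2 difference of the 10 was -0.17, beside 0.05 for all genes.

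Gata6, a zinc finger activator shared by heart muscle and its mesoderm, came nearest. It read -2.89, -2.62 and -1.95 in stretch, against -1.99, -1.80 and -1.67 in control. Stretch was lower on all 3 slides, by 0.90, 0.82 and 0.28, although the highest stretch sample lay within the control range. The difference was -0.67 ± 0.34 over all samples (adjusted p 1) and -0.67 ± 0.21 with the slide as a block (adjusted p 0.973, limma). In session 2 the stretch arrays were lower still, at -3.56, -3.64, -3.62 and -5.27, with no control beside them. A term that joins sessions 2 and 3 made Gata6 differ by -1.24 ± 0.26 (adjusted p 0.0174), so that 1 of 10 factors was called, beside 1840 genes (7.84%). For stretch with BIRB796 against stretch the same term gave Gata6 1.48 ± 0.32 (adjusted p 0.0437), 1 of 10 factors beside 235 genes (1%). In that fit, session 2 and stretch cannot be told apart.

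**Figure D4:**
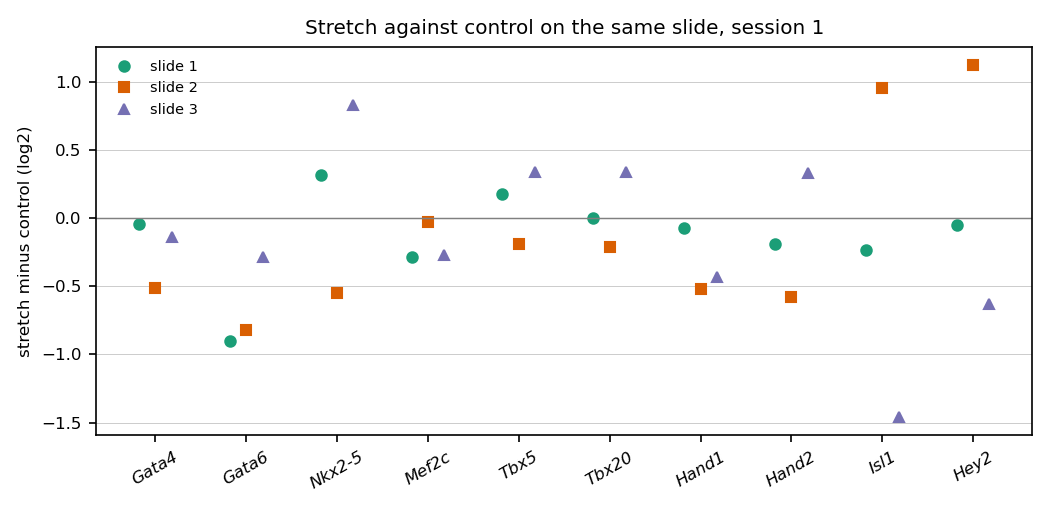
Stretch minus control on the same slide (y axis, log2) for each factor and each of the 3 slides of session 1. Gata6, Gata4, Mef2c and Hand1 lie below 0 on all 3 slides, and Isl1 and Hey2 run from -1.46 to 1.13 with slide 2 high and slide 3 low in both.

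Hey2 and Isl1 did not move one way with stretch. Stretch minus control was -0.05, 1.13 and -0.63 for Hey2 on slides 1 to 3 and -0.23, 0.96 and -1.46 for Isl1, so both were high on slide 2 and low on slide 3. The differences over all samples were 0.15 ± 0.50 and -0.24 ± 0.46. Gata4 was lower with stretch on 3 of 3 slides, by 0.04 to 0.51, as were Mef2c, by 0.03 to 0.28, and Hand1, by 0.07 to 0.52. None of these passed the test. Nkx2-5 was mixed, at 0.32, -0.55 and 0.83, and so were Tbx5 and Tbx20.

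Stretch with BIRB796 was also set against BIRB796 alone. Over all samples 0 of 10 factors and 0 genes (0%) were called, with 0 factors and 440 genes at an unadjusted p under 0.05 (limma). In session 3 alone it was again 0 of both (0%), with 1 factor and 1915 genes at an unadjusted p under 0.05. Hey2 differed by -0.06 (95% interval -0.97 to 0.85) and Isl1 by 0.13 (-0.74 to 1.00) in session 3, so changes of nearly 1 in either direction lie within the intervals. Gata6 differed by 0.39 ± 0.17, with -2.42, -2.26, -2.40 and -2.54 in stretch with BIRB796 against -2.45, -2.77, -3.25 and -2.69 in BIRB796, and Hand1 by 0.40 ± 0.16 (adjusted p 0.617 and 0.588).

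Stretch with BIRB796 and stretch alone shared no session, so that comparison runs through the controls. There 0 of 10 factors and 0 genes (0%) were called, with 0 factors and 528 genes at an unadjusted p under 0.05 (limma). Hey2 differed by 1.21 ± 0.66 and Isl1 by 1.12 ± 0.61. Whether BIRB796 altered the effect of stretch was tested as an interaction, with 0 of 10 factors and 0 genes (0%) called, and 1 factor and 322 genes at an unadjusted p under 0.05. That factor was Gata6, whose stretch difference was 1.05 ± 0.45 higher with BIRB796 than without it (limma, adjusted p 1).

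Genes that these factors are known to switch on were read beside them, 24 of 24 measured. Within session 3, 1 of the 24 was called for stretch with BIRB796 against control, beside 2.78% of all genes. That fit called no gene without control replicate 4, 5 or 6 or stretch with BIRB796 replicate 4. The called gene was Atp2a2, the calcium pump of the sarcoplasmic reticulum. It differed by -0.45 ± 0.08 on the log2 scale (limma, adjusted p 0.0407, and 0.751 over all samples). None was called for BIRB796 against control, beside 1.24% of all genes in session 3, nor for stretch, beside 0%. Nppa, the atrial natriuretic peptide, read 3.62, 1.92, 2.03 and 1.80 in stretch with BIRB796 and 2.85, 1.55, 1.77 and 0.90 in BIRB796, against 0.11, 0.37, 0.31 and 1.02 in session 3 controls. BIRB796 replicate 4 overlapped these controls, and session 1 controls, at 0.91 to 3.27, overlapped both treated groups. The differences of 1.89 ± 0.42 and 1.32 ± 0.40 had adjusted p of 0.058 and 0.154 in session 3 alone (limma). Nppb, the related B-type peptide, differed by 2.04 ± 0.61 and 1.67 ± 0.42 (limma, adjusted p 0.102 and 0.099). Its session 1 controls, at 0.79 to 3.42, also overlapped both treated groups. Under stretch alone, Nppa differed by 1.28 ± 0.67 and Nppb by 1.44 ± 0.72 over all samples (adjusted p 1 each). The contractile genes Myh6, Myh7 and Tnnt2 differed by no more than 0.23 in either direction in these 3 comparisons.

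Of 26 further cardiac transcription factors and cofactors measured, 1 was called in each comparison of session 3 with control. The share of all genes called there was 2.78% for stretch with BIRB796 and 1.24% for BIRB796. Neither fit called any gene without control replicate 4, 5 or 6. Tbx1, a T-box gene of the second heart field, was 1.31 ± 0.25 higher for stretch with BIRB796 (limma, adjusted p 0.0462). Foxc1, a forkhead gene of mesoderm, was 1.02 ± 0.17 higher for BIRB796 (adjusted p 0.0415). Neither was called over all samples, and none of the 26 was called for stretch, beside 0% of all genes. Session 1 controls overlapped the treated samples for both. They read -3.79 to -2.81 for Tbx1, beside -3.62 to -2.66 in stretch with BIRB796. For Foxc1 they read -0.39 to 0.42, beside 0.15 to 0.89 in BIRB796. Among 17 measured genes of BMP signalling, which induces several of the 10 factors, Grem1, a secreted BMP antagonist, was the one called over all samples, at 2.21 ± 0.40 for stretch with BIRB796 (adjusted p 0.0446). For BIRB796 it was 2.24 ± 0.40 (limma, adjusted p 0.147). Those comparisons over all samples called 0.0767% and 0% of all genes. Grem1 read 1.46 to 2.87 in stretch with BIRB796 and 1.53 to 2.92 in BIRB796, against -0.47 to 0.09 in session 3 controls, but session 1 controls read 3.46 to 3.76, above all of these. Within session 3 Grem1 was called in both. Bmp4, a ligand, was 0.85 ± 0.15 higher for BIRB796 (limma, adjusted p just under the threshold, 0.05 when rounded). Bmp2, another ligand, differed by -0.81 ± 0.09 for stretch with BIRB796 (limma, adjusted p 0.0205). Session 1 controls read 1.03 to 1.20 for Bmp4, inside the BIRB796 range of 0.72 to 1.39. For Bmp2 they read -1.02 to -0.59, above the stretch with BIRB796 range of -1.26 to -1.16.

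The factors differed in how steady they were. The standard deviation between samples of a group and session was 0.65 for Hey2, 0.59 for Isl1 and 0.52 for Nkx2-5, and 0.26 for Gata4 and 0.22 for Hand2, beside a median of 0.39 over all genes. In session 2, which held stretch arrays alone, Mef2c read 0.69, 0.70, 0.89 and -0.98 and Nkx2-5 read 1.31, 1.29, -0.36 and 2.17. The low Mef2c value is stretch replicate 7, the array with the fewest probes above background, and the low Nkx2-5 value is stretch replicate 6, the array with the lowest cardiomyocyte markers. Their part in these values was not tested.

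By the likeness measure used for Isl1 and Hey2, Nkx2-5 was closest to Fxyd1, a regulator of the sodium pump (r 0.98), Ldhb, a lactate dehydrogenase subunit (r 0.96), and Unc45b, a chaperone of muscle myosin (r 0.96). Tbx5 was closest to Rcor2 (r 0.86) and Mypn, a sarcomere protein (r 0.85), and Tbx20 to Cpeb3 (r 0.87). Hand1 was closest to Sparc, a matrix protein (r 0.90), and Hand2 to Tbc1d8 (r 0.92). The likeness of Gata4 to Gtf2ird2 (r 0.95), of Gata6 to Pcm1 (r 0.93) and of Mef2c to Arhgap32 (r 0.97) leaned on stretch replicate 7, without which r was 0.87, 0.87 and 0.83. Among the 10 factors themselves, Gata4 with Mef2c gave 0.77 with that array and 0.31 without it, while Nkx2-5 with Tbx5 gave 0.60 and 0.66. All are over 21 samples that share slides and sessions.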

How the data were processed

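RNA of the engineered tissues was read on 1-colour Agilent arrays, 22 in all. The deposited scanner files hold spot intensity, background-subtracted by Agilent Feature Extraction per the file headers, with flags for spots above background. The authors' deposited table holds log2 values of the same arrays, whose scaling and centring are not given in the sources used here; all 22 columns were mapped, each correlated with its own array at 1 after rounding, and column medians ran from -0.11 to 0.4. It served as an alternative.

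From 42877 gene spots, spots of a probe were averaged to 30367 probes, log2 signal was reduced by each array's 75th percentile (846 to 4779 signal units), a probe had to be flagged as above background on 4 or more arrays, and the probe with the highest mean stood for its gene. Names came by accession for 17980 probes, by symbol for 2369 and by synonym for 616, and 9391 kept the file's name. limma 3.58.1 in R 4.3.3 fitted all 21 samples with the scan session as a term, two-sided, with Benjamini-Hochberg adjustment over all genes and an adjusted p under 0.05 as a call. The alternative "session 3 alone" or "session 1 alone" fits the compared groups of the session they share; the slide was added to the session 3 fits after their results were seen. The number of arrays limits precision. Data of 23255 genes were simulated for stretch with BIRB796 against control, without session effects or likeness between arrays of a slide. The fit with the session term recovered 28% of 100 genes changed by 1 on the log2 scale and 71% of 100 changed by 2. The fit of session 3 alone recovered 12% and 63%. These shares need not hold for the real arrays, which do differ by session and slide. Background correction by normexp used the median spot signal, since most scanner files give no mean signal.

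The 10 factors, the gene lists and the marker lists were chosen with earlier results of these data known. Named were all 10 factors, the called members of each list (or the 1 with the smallest p), 5 fixed target genes and, for each factor, genes of most like pattern. Hey1 and the values of stretch replicates 1, 3 and 6 were singled out after they were seen.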

Additional observations from a re-analysis of the deposited data

Results flagged for a closer look

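Nkx2-5 in stretch replicate 6 read -0.36, far below the other stretch samples, the lowest of which read 1.30 (replicates 4 and 5 averaged). Mef2c in stretch replicate 7 read -0.98, with the next stretch sample at 0.63. Each gap exceeded Dixon's 95% critical value for 6 samples. These were 2 of 40 groups tested, and chance passes about 1 in 20. Both arrays belong to session 2, which enters no comparison with a control of its own session.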

How the results depend on the processing

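Of 2106 values of the 10 factors under alternatives, 2099 stayed on their side of the threshold, 7 newly passed it, and 82 changed sign while not called in either. The 7 were Gata6 with the array set term (-1.24 for stretch against control, 1.48 for stretch with BIRB796 against stretch), Hey2 and Isl1 in stretch with BIRB796 against control in the shared session alone and with the slide as a random block in it, and Hey2 there with the 3 groups of session 3 in one fit. Factors called were thus 1, 1, 2, 2 and 1 under these settings.

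Counts of genes called moved with the treatment of the session. For stretch against control they were 0, but 267 with no session term, 1840 with the array set term and 1 with the slide as a random block. For BIRB796 against control they were 0, but 290 in the shared session alone, 127 without session 2 and 418 with session 3 alone in one fit, and within that session 3 with the slide as a random and 236 as a fixed block. For stretch with BIRB796 against control they were 18, but 1 with no session term, 2 with the array set term, 652 in the shared session alone, 70 with the slide block, 657 without session 2, 1780 with session 3 alone in one fit, and within that session 682 with the slide as a random and 0 as a fixed block. For stretch with BIRB796 against BIRB796 they were 0, but 19 with session 3 alone in one fit and 1 with the slide as a fixed block, and against stretch 0, but 132 with no session term and 235 with the array set term. The settings without session 2, with session 3 in one fit and with the slide within session 3 were chosen after seeing the data, and the cause was not tested.

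With single samples left out of the fit of all samples with the session term, 0 factors were called in every comparison. Genes called ran from 0 to 0 for stretch against control, 0 to 35 for BIRB796 against control, 0 to 200 for stretch with BIRB796 against control, 0 to 2 against BIRB796, 0 to 1 against stretch and 0 to 1 for the interaction. The 200 came without stretch replicate 7, and 0 without control replicate 4, 5 or 6 or stretch with BIRB796 replicate 4.

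With the replicate number as a block, 0 factors and 0 genes were called. Deviations of same-numbered samples correlated at 0.42, -0.04 and 0.40 for stretch and control in session 1, where each pair shares a slide. For stretch with BIRB796 and BIRB796 they correlated at 0.61, 0.05, 0.08 and 0.09, of which the pairs numbered 1 and 4 share a slide. Not every pair passed 0.1, so the numbers were not taken as pairs. Arrays of a slide correlated at 0.56 over all genes. The block could not be fitted for stretch with BIRB796 against stretch, which share no session.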

Other observations

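Other marker lists in session 3 were as follows. Macrophage markers (9 measured) averaged 1.65 to 1.85 in stretch with BIRB796 and 1.77 to 2.21 in BIRB796, against 1.86 to 2.72 in control. Fibroblast markers (10) averaged 1.39 to 1.56 in stretch with BIRB796 and 1.06 to 1.47 in BIRB796, against 0.67 to 1.5 in control. Erythroid markers (6) averaged -5.14 to -4.96 and -4.98 to -4.83, against -4.85 to -4.72 in control, and neural markers (8) -5.05 to -4.47 and -5.32 to -4.36, against -5.13 to -4.82 in control. Of the epicardial and endothelial markers, limma in session 3 alone called Krt8 lower for BIRB796 against control and Pecam1, Esam and Egfl7 lower for stretch with BIRB796 against control. For stretch with BIRB796 against control it also called Lum, a matrix proteoglycan, higher and Elavl4, a neuronal RNA-binding protein, lower. In that comparison over all samples, limma called Esam, an endothelial adhesion molecule, at -1.65 ± 0.26 (adjusted p 0.0287). The session 3 fits called 1.24% of all genes for BIRB796 and 2.78% for stretch with BIRB796. Both called none without control replicate 4, 5 or 6.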
